A study of Mus musculus with 48 samples.

Results

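The genes described here are 8 ligands of the CXC chemokine family measured in the lungs of mice that breathed cigarette smoke or filtered air: the neutrophil-attracting ligands Cxcl1, Cxcl2 and Cxcl5, the lung epithelial ligand Cxcl15, and Cxcl12, Cxcl13, Cxcl14 and Cxcl16. They were chosen by gene symbol, not by their values, and are 8 of the 12393 genes tested. The interferon-induced ligands Cxcl9, Cxcl10 and Cxcl11 are left out. All 8 were measured, by 12 probe sets: 1 each for Cxcl1, Cxcl2, Cxcl5 and Cxcl15, and 2 each for Cxcl12, Cxcl13, Cxcl14 and Cxcl16. For a gene with 2, the probe set with the higher mean over all arrays stands for the gene, and the other is given beside it.

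Each of 48 arrays held lung RNA of 1 male C57BL/6 mouse, in 6 groups of 8. Regular weight (RW) mice had chow of about 5 kcal% fat, while diet-induced obese (DIO) mice had a high-fat diet, 60 kcal% fat, that began at 6 weeks of age. Mice of each diet breathed filtered air (the sham controls), mainstream smoke or sidestream smoke through the nose only, for 5 hours a day on 8 days within 2 weeks, from 15 weeks of age, and lungs were taken the day after the last exposure. Strain, sex, age and nose-only exposure are common to all groups, diet and body weight cannot be told apart, and the labels also speak of an exposure study with lipopolysaccharide (LPS) without saying whether any of these mice were part of it.

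Chemokines are small secreted proteins that direct the movement of leukocytes through receptors on the cell surface. Cxcl1, Cxcl2 and Cxcl5 carry the glutamate-leucine-arginine motif that lets a ligand bind Cxcr2 and draw neutrophils out of the blood, and their genes are switched on by interleukin 1, interleukin 17 and tumour necrosis factor through NF-kB. Cxcl15 was listed with them as a ligand that carries this motif. Cxcl12, Cxcl13, Cxcl14 and Cxcl16 are better known for placing cells in resting tissue: Cxcl12 holds Cxcr4-bearing cells, Cxcl13 leads B cells with Cxcr5 into follicles, Cxcl14 is made by many epithelia, and Cxcl16 is a membrane-bound ligand of Cxcr6.

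Values are log2 signals, so a difference of 1 is a 2-fold change. Across the 48 arrays Sftpc, the surfactant protein of alveolar type 2 cells, lay between 14.97 and 15.13, and Scgb1a1, the secretoglobin of club cells, between 15.08 and 15.27. Both lie near the highest value on any array, 15.27, so their narrow range is no measure of equal lung content. For 43 arrays the mean correlation with the other arrays was at least 0.986, and for 5 it was between 0.960 and 0.980: RW sidestream array 6, DIO air arrays 3 and 7, and DIO mainstream arrays 1 and 6. For many results that rest on those 5, the value without them is given beside it. The other values are from all 48 arrays. Markers of tissue other than lung parenchyma were high on 3 of the 5: fat, skeletal muscle and squamous epithelium on DIO air array 3, fat and thymocytes on DIO air array 7, and fat on RW sidestream array 6. The RNA came from whole lung, so that fewer cells of a type and less RNA per cell cannot be told apart.

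Genes for 5 of the 8 ligands lie on chromosome 5, and 4 of these stand in 1 run of 7 protein-coding genes: Cxcl5, Ppbp, Pf4, Cxcl3, Cxcl15, Cxcl1 and Cxcl2, in that order (Cxcl3 was not analysed here). Cxcl13 lies elsewhere on chromosome 5, Cxcl12 on chromosome 6, Cxcl14 on chromosome 13 and Cxcl16 on chromosome 11. RefSeq promoter sequence was matched for 6 of the 8, all but Cxcl5 and Cxcl16. The 250 bases before the start of Cxcl1, Cxcl2 and Cxcl15 are shown because Cxcl1 and Cxcl2 rose together after mainstream smoke, while Cxcl15, their neighbour, did not pass the test in RW mice. They are from GRCm38.p6, plus strand: chr5:90890995-90891244 for Cxcl1, chr5:90903649-90903898 for Cxcl2 and chr5:90794284-90794533 for Cxcl15. Capitals mark matches to the NF-kB decamer.
Cxcl1: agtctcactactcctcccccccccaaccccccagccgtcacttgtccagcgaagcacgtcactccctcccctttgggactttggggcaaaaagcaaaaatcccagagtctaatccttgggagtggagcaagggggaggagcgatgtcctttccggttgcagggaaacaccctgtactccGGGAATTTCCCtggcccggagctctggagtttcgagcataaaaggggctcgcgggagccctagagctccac
Cxcl2: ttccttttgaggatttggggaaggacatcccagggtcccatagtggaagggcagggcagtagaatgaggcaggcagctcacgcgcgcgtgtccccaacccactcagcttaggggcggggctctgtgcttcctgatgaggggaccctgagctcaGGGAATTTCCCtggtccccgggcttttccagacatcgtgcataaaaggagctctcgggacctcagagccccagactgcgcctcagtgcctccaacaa
Cxcl15: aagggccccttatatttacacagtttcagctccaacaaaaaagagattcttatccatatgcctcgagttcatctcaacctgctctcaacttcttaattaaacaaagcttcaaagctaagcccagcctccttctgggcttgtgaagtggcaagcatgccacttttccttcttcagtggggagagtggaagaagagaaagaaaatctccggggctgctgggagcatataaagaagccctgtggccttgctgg
Cxcl1 and Cxcl2 carry the same run of capitals, made of 2 overlapping matches, 1 on each strand. It begins 71 bases before the start of Cxcl1 and 97 bases before that of Cxcl2. No match lies in the windows of Cxcl15, Cxcl12, Cxcl13 or Cxcl14, and 7.25% of all 32841 windows of this length hold 1 or more on either strand. The AP-1 motif TGANTCA was found in none of the 6 windows and in 6.75% of all. The xenobiotic response core GCGTG had 2 matches in the window of Cxcl2, 1 in that of Cxcl13 and 2 in that of Cxcl14. It had none in the windows of Cxcl1, Cxcl15 and Cxcl12, and 28.2% of all windows held it. A match describes the letters only, and no match says nothing about the factor.

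Mainstream smoke raised Cxcl1, Cxcl2 and Cxcl5 in both diets, and their values on all 16 mainstream arrays lay above those on all 32 other arrays. The share of all genes separated in this way is not given here. In RW mice 4 of the 8 ligands were called higher than in air and none lower (limma, adjusted p below 0.05; Cxcl1, Cxcl2, Cxcl5 and Cxcl16), where 6.61% of all genes were called higher and 14.7% in either direction. In DIO mice 6 of the 8 were called higher and none lower, adding Cxcl13 and Cxcl15, where 11.7% of genes were called higher and 21.4% either way. The median difference of the 8 was 0.41 in RW and 1.31 in DIO mice, and that of all genes was -0.03 and -0.02. Without the 5 arrays the median of the 8 was 0.71 in DIO mice and still 0.41 in RW mice, with 5 ligands called in each diet: RW mice gained Cxcl13 and DIO mice lost Cxcl15. Cxcl5 and Cxcl1 ranked the 2nd and 3rd highest of the 12393 differences in each diet, and Cxcl2 ranked 15 in RW and 14 in DIO mice.

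Cxcl1, also known as KC, is an early neutrophil attractant of mouse lung. In RW mice it had a lowest, median and highest signal of 4.93, 5.49 and 5.62 in air and of 7.67, 9.16 and 9.72 after mainstream smoke. The DIO values were 4.87, 5.30 and 5.74 in air and 9.14, 9.67 and 11.38 after mainstream smoke. No mainstream array came near an air array, and the 2 highest of all were DIO mainstream arrays 6 and 1, at 11.38 and 10.50. The difference was 3.69 ± 0.24 (SE, n = 8 per group) in RW mice, 12.9-fold, with an adjusted p of 5.52e-17. In DIO mice it was 4.56 ± 0.24, 23.6-fold, with an adjusted p of 1.42e-20, and 4.09 without the 5 arrays, 17.1-fold.

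Cxcl2, or MIP-2, binds the same receptor and is a product of macrophages and epithelium. In RW mice its lowest, median and highest signals were 3.55, 3.97 and 4.59 in air and 4.95, 6.29 and 6.56 after mainstream smoke. The DIO values were 3.73, 3.98 and 4.22 in air and 6.04, 6.50 and 9.77 after mainstream smoke. The groups did not overlap, RW mainstream array 5 stood alone at the low end, and DIO mainstream arrays 6 and 1 stood alone at the high end, at 9.77 and 8.88 against 6.63 for the next. Cxcl2 rose by 2.15 ± 0.32 in RW mice (4.45-fold, adjusted p = 2.17e-06). In DIO mice it rose by 3.09 ± 0.32 (8.54-fold, adjusted p = 1.53e-10), and by 2.33 without the 5 arrays (5.02-fold).

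Cxcl5, also called LIX, is made by alveolar epithelial cells. In RW mice its lowest, median and highest signals were 3.51, 4.12 and 5.25 in air and 6.61, 8.81 and 9.45 after mainstream smoke. For DIO mice the values were 3.84, 4.09 and 5.04 in air and 8.12, 8.49 and 10.91 after mainstream smoke. Again the groups did not overlap, and RW mainstream array 5 was the lowest and DIO mainstream array 6 the highest. The difference was 4.34 ± 0.34 in RW mice (20.2-fold, adjusted p = 8.54e-14), the largest of the 8 ligands. The DIO difference was 4.65 ± 0.34 (25.2-fold, adjusted p = 4.97e-15), and 4.05 without the 5 arrays (16.6-fold).

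On all 16 air arrays Cxcl1, Cxcl2 and Cxcl5 lay at or below 6.31, the lower quartile of all values, and the deposited table gives no detection call. Their folds are therefore taken against dim signals. Cxcl2 also lay at or below that quartile on 4 of 8 RW and 3 of 8 DIO mainstream arrays, Cxcl1 and Cxcl5 on none. RW mainstream array 5 was the lowest of its group for 5 of the 8 ligands, and DIO mainstream array 6 the highest of its group for 4.

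Cxcl15, or lungkine, is a ligand made by lung epithelium. In RW mice its lowest, median and highest signals were 13.66, 13.80 and 13.96 in air and 13.70, 13.76 and 14.01 after mainstream smoke. For DIO mice the values were 13.03, 13.80 and 13.94 in air and 13.83, 14.01 and 14.14 after mainstream smoke. The RW groups overlapped almost wholly, while in DIO mice 7 of 8 mainstream arrays lay above every air array. The difference was 0.01 ± 0.08 in RW mice (95% interval -0.14 to 0.17, adjusted p = 0.94). The DIO difference was 0.29 ± 0.08 (1.22-fold, adjusted p = 0.0053), but 0.12 with an adjusted p of 0.14 without the 5 arrays, of which DIO air array 7 was the lowest of all at 13.03, and the call was also lost in a fit of these 2 groups alone (adjusted p = 0.11). That array also had the lowest alveolar type 2 marker score of its group, -0.65 against -0.12 to 0.07 for the 6 DIO air arrays that did not stand apart. A score here is the mean over a marker list of each gene's log2 deviation from its mean over the 48 arrays. The same array had a thymocyte score of 5.70 and a fat score of 4.75, and DIO air array 3 had scores of 7.06 for skeletal muscle, 6.49 for squamous epithelium and 3.00 for fat. In RW air these 4 scores lay at or below 0.24. Array 7 also had the lowest Cxcl14 (8.75) and the highest signal of the second Cxcl12 probe set (11.40) in its group, and array 3 the lowest Cxcl12 by the first (10.28). The part of these tissues in the results for Cxcl15, Cxcl14 and Cxcl12 was not tested.

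**Figure D1:**
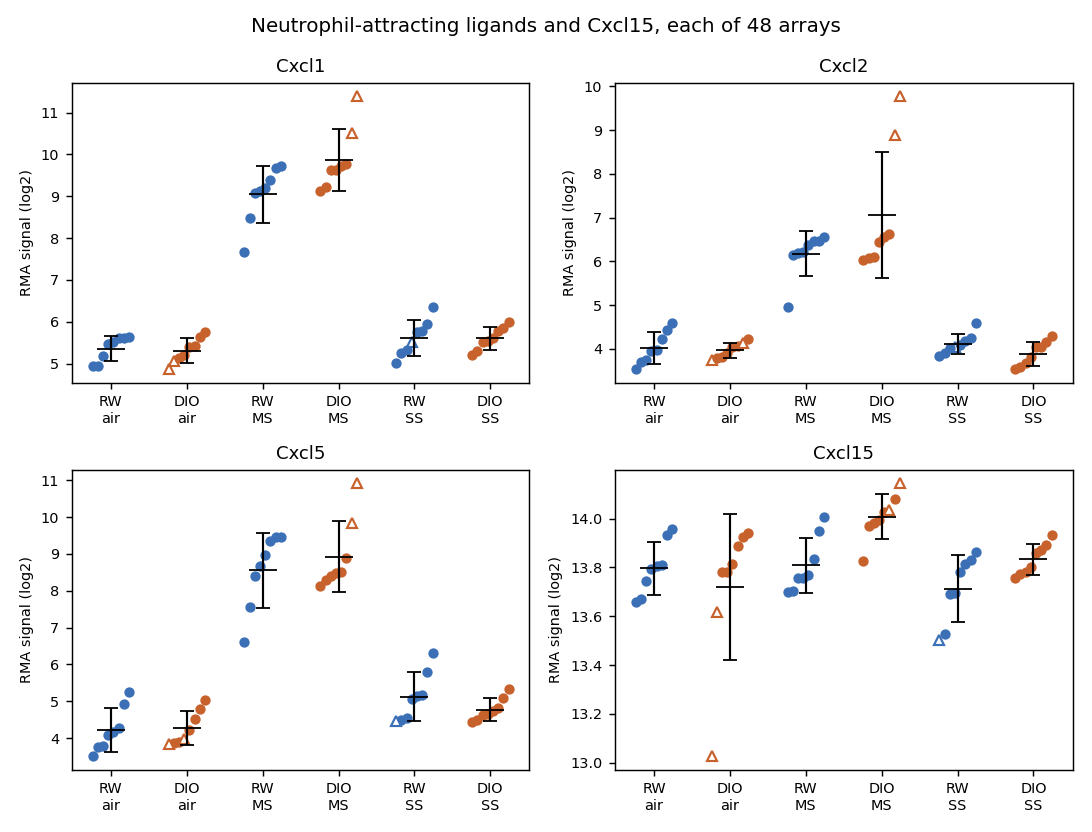
Log2 RMA signal of Cxcl1, Cxcl2, Cxcl5 and Cxcl15 on each of the 48 arrays by group (RW blue, DIO orange, MS mainstream, SS sidestream). Points are arrays in order of value, open triangles the 5 arrays that stand apart, and black bars the mean ± SD of 8. The mainstream arrays of Cxcl1, Cxcl2 and Cxcl5 lie above all 32 others, while Cxcl15 stays between 13.03 and 14.14.

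Cxcl16, the membrane-bound ligand of Cxcr6 that also takes up oxidised lipoprotein, rose in both diets. In RW mice its lowest, median and highest signals were 9.85, 9.92 and 10.09 in air and 10.14, 10.32 and 10.43 after mainstream smoke. For DIO mice the values were 9.45, 9.86 and 10.01 in air and 10.38, 10.49 and 11.55 after mainstream smoke. Within each diet every mainstream array lay above every air array. The difference was 0.36 ± 0.11 in RW mice (1.29-fold, adjusted p = 0.019). The DIO difference was 0.91 ± 0.11 (1.88-fold, adjusted p = 9.92e-09), and 0.57 without the 5 arrays (1.49-fold, adjusted p = 1.36e-09). The other probe set of Cxcl16 rose as well, by 0.44 ± 0.12 and 1.04 ± 0.12 (0.68 in DIO mice without the 5 arrays). Adam10 and Adam17, the proteases that shed Cxcl16 from the membrane, rose by 0.29 and 0.32 in RW mice. In DIO mice they rose by 0.33 and 0.47 (0.31 and 0.34 without the 5 arrays). They were the 2 members called of a list of 4 proteases. Of all genes 6.61% were called higher in RW and 11.7% in DIO mice.

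Cxcl13, the B cell attractant of lymphoid follicles, was called higher after mainstream smoke in DIO mice, where 2 arrays stood far above the other 6. In RW mice its lowest, median and highest signals were 7.31, 7.69 and 7.85 in air and 7.80, 8.01 and 8.51 after mainstream smoke. Among DIO mice they were 7.17, 7.43 and 7.64 in air and 8.02, 8.28 and 11.80 after mainstream smoke. All 8 DIO mainstream arrays and 7 of 8 RW mainstream arrays lay above every air array of their diet. The difference was 1.71 ± 0.37 in DIO mice (3.27-fold, adjusted p = 4.23e-04), and 0.84 without the 5 arrays (1.78-fold, adjusted p = 4.94e-08); a fit of these 2 groups alone gave an adjusted p of 0.052. In RW mice it was 0.46 ± 0.37 (1.38-fold, adjusted p = 0.45), with the same difference and an adjusted p of 1.58e-04 without the 5 arrays, none of which belong to these 2 groups; they enter through the spread shared by all groups. The other probe set gave 0.93 ± 0.41 in RW mice (adjusted p = 0.13) and 2.44 ± 0.41 in DIO mice (adjusted p = 1.61e-05). Without the 5 arrays it gave 0.93 (adjusted p = 1.27e-05) and 1.54 (adjusted p = 8.11e-09).

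DIO mainstream arrays 1 and 6, the 2 with Cxcl13 at 11.73 and 11.80, had interferon gene scores of 3.76 and 3.54 over 6 measured of 8 listed genes, a list chosen with these results known. The other 6 arrays of that group had scores between -0.25 and -0.06 and Cxcl13 between 8.02 and 8.64. The same 2 arrays exceeded the mean of the other 6 in Cxcl2 by 2.58 and 3.46, in Cxcl16 by 1.08 and 0.89, in Cxcl5 by 1.39 and 2.47 and in Cxcl1 by 0.99 and 1.87. Their neutrophil marker scores, 0.51 and 0.83, were also the highest of the group, the other 6 lying between -0.05 and 0.21. By the probe sets that stand for the genes, Cxcl14 and Cxcl12 differed from the mean of the other 6 by at most 0.25 on either array. By the other probe sets array 6 was the highest of its group, at 12.40 for Cxcl12 and 9.83 for Cxcl14. The group medians there were 11.11 and 9.21, and the next highest values 12.08 and 9.59. The part of the interferon and neutrophil genes in these results was not tested.

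**Figure D2:**
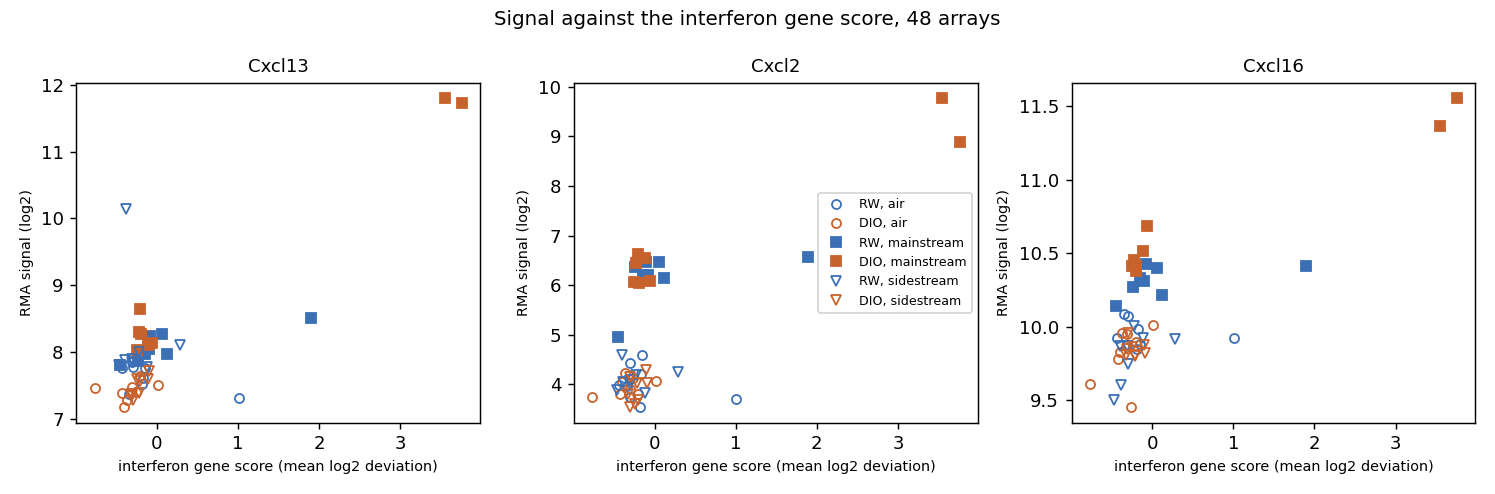
Log2 RMA signal of Cxcl13, Cxcl2 and Cxcl16 against the interferon gene score, 1 point per array (48 arrays; colour gives the diet, symbol the exposure). DIO mainstream arrays 1 and 6 stand apart at scores of 3.76 and 3.54, RW mainstream array 7 at 1.90 has Cxcl13 at 8.51, and RW sidestream array 6 has Cxcl13 at 10.14 with a score of -0.38.

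For Cxcl12, the stromal ligand of Cxcr4, the 2 probe sets gave different answers. Probe set 1417574_at, which stands for the gene, had a lowest, median and highest signal of 10.35, 10.51 and 10.74 in RW air and 10.53, 10.77 and 10.99 in RW mainstream mice. The DIO values were 10.28, 10.80 and 10.92 in air and 10.71, 10.99 and 11.12 after mainstream smoke. Both pairs of groups overlapped, and neither difference passed the test: 0.21 ± 0.10 (adjusted p = 0.13) and 0.23 ± 0.10 (adjusted p = 0.090). Probe set 1448823_at had 9.34, 9.59 and 9.80 in RW air and 10.31, 10.50 and 10.92 in RW mainstream mice, with no overlap. The DIO values of the same probe set were 9.41, 9.69 and 11.40 in air and 10.69, 11.11 and 12.40 after mainstream smoke, where the air value of 11.40 was that of array 7. That probe set rose by 0.93 ± 0.18 in RW mice (1.91-fold, adjusted p = 1.99e-04 in a fit of all 20380 probe sets). The rise in DIO mice was 1.45 ± 0.18 (2.74-fold, adjusted p = 1.37e-08), and 1.33 without the 5 arrays.

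Within each array, the second Cxcl12 probe set minus the first lay between -1.15 and -0.65 in RW air, and between -0.48 and 0.39 in RW mainstream mice. In DIO mice it lay between -1.35 and 0.91 in air (at most -0.85 without array 7) and between -0.08 and 1.32 after mainstream smoke. In sidestream mice it lay between -1.15 and -0.25 (RW) and between -1.42 and -0.84 (DIO). All 16 mainstream arrays lay above all other arrays in this gap except DIO air array 7 and RW sidestream array 8, at 0.91 and -0.25. This comparison was chosen after the values were seen and carries no test. The 2 probe sets rest on different transcript records, and which transcripts each detects was not tested.

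**Figure D3:**
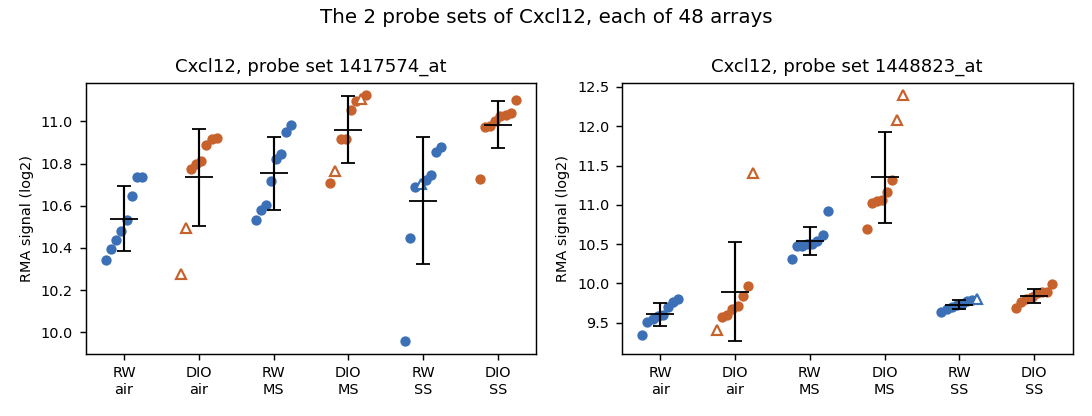
Log2 RMA signal of the 2 Cxcl12 probe sets on each of the 48 arrays by group (colours, triangles and bars as for the neutrophil-attracting ligands). With 1448823_at the mainstream groups average 10.54 and 11.35 against 9.61 and 9.90 in air; with 1417574_at all 6 group means lie between 10.54 and 10.98.

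Cxcl14, a ligand made by resting epithelia whose receptor is not settled, did not pass the test after mainstream smoke in either diet. Its lowest, median and highest signals in RW mice were 10.03, 10.26 and 10.57 in air and 9.91, 10.08 and 10.43 after mainstream smoke. Among DIO mice they were 8.75, 9.71 and 9.81 in air and 9.33, 9.69 and 10.05 after mainstream smoke. The groups overlapped within each diet, and the differences were -0.11 ± 0.12 (95% interval -0.36 to 0.13, adjusted p = 0.61) and 0.09 ± 0.12 (95% interval -0.16 to 0.34, adjusted p = 0.66).

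Cxcl14 was lower in DIO than in RW mice under each of the 3 exposures. In air 1 of the 8 ligands was called between diets, Cxcl14, which was lower in DIO mice; 5.99% of all genes were called lower there and 8.28% either way. All 8 DIO air arrays lay below every RW air array, with a difference of -0.70 ± 0.12 (1.62-fold lower, adjusted p = 1.52e-04), and -0.55 without the 5 arrays (adjusted p = 8.32e-04). The other probe set of Cxcl14 differed by -0.82 ± 0.16 (adjusted p = 5.55e-04). After mainstream smoke Cxcl14 differed by -0.49 ± 0.12, DIO minus RW (adjusted p = 0.028, 7 of 8 arrays below all RW arrays), and after sidestream smoke by -0.47 ± 0.12 (adjusted p = 0.039, 5 of 8 arrays below). The other probe set gave -0.44 ± 0.16 (adjusted p = 0.18) and -0.68 ± 0.16 (adjusted p = 0.020). The mainstream call was lost when any of 7 arrays was left out (RW mainstream 3, 5 and 8, DIO mainstream 1, 2, 5 and 8; adjusted p 0.051 to 0.080), and with the mean of both probe sets (adjusted p = 0.066). The sidestream call was lost without any of 12 (RW sidestream 3 to 8 and DIO sidestream 1, 2, 3, 4, 6 and 8; adjusted p 0.056 to 0.14), while without all 5 arrays that stand apart both held, at -0.53 (adjusted p = 0.0069) and -0.50 (adjusted p = 0.0054). Without those 5 arrays the other probe set gave -0.58 after mainstream smoke (adjusted p = 0.028) and -0.73 after sidestream smoke (adjusted p = 0.0012). By the first probe set the lowest of the 24 RW arrays was at 9.68, and the highest of the 24 DIO arrays at 10.05.

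Beside Cxcl14, Cxcl16 was the other ligand called between diets after mainstream smoke, higher in DIO mice by 0.41 ± 0.11 (adjusted p = 0.049), where 1.21% of all genes were called. Without the 5 arrays that difference was 0.16 with an adjusted p of 0.16, and the call was lost in 37 of 48 fits that left out 1 array (adjusted p 0.050 to 0.18) and with median centring, all probe sets or only these 2 groups (0.058, 0.051 and 0.28). After sidestream smoke 1 of the 8 ligands was called between diets, Cxcl14, where 0.976% of genes were. For Cxcl12 the second probe set was higher in DIO than in RW mainstream mice by 0.81 ± 0.18 (adjusted p = 0.013), and by 0.51 without the 5 arrays (adjusted p = 9.21e-05), while the first gave 0.21 ± 0.10 (adjusted p = 0.35). After sidestream smoke it was the first that stood higher in DIO mice, by 0.36 ± 0.10 with 7 of 8 arrays above all RW arrays (adjusted p = 0.055, and 0.018 without the 5 arrays), against 0.11 ± 0.18 for the second. In air the first gave 0.20 ± 0.10 (adjusted p = 0.22), and 0.31 with an adjusted p of 0.029 without the 5 arrays.

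**Figure D4:**
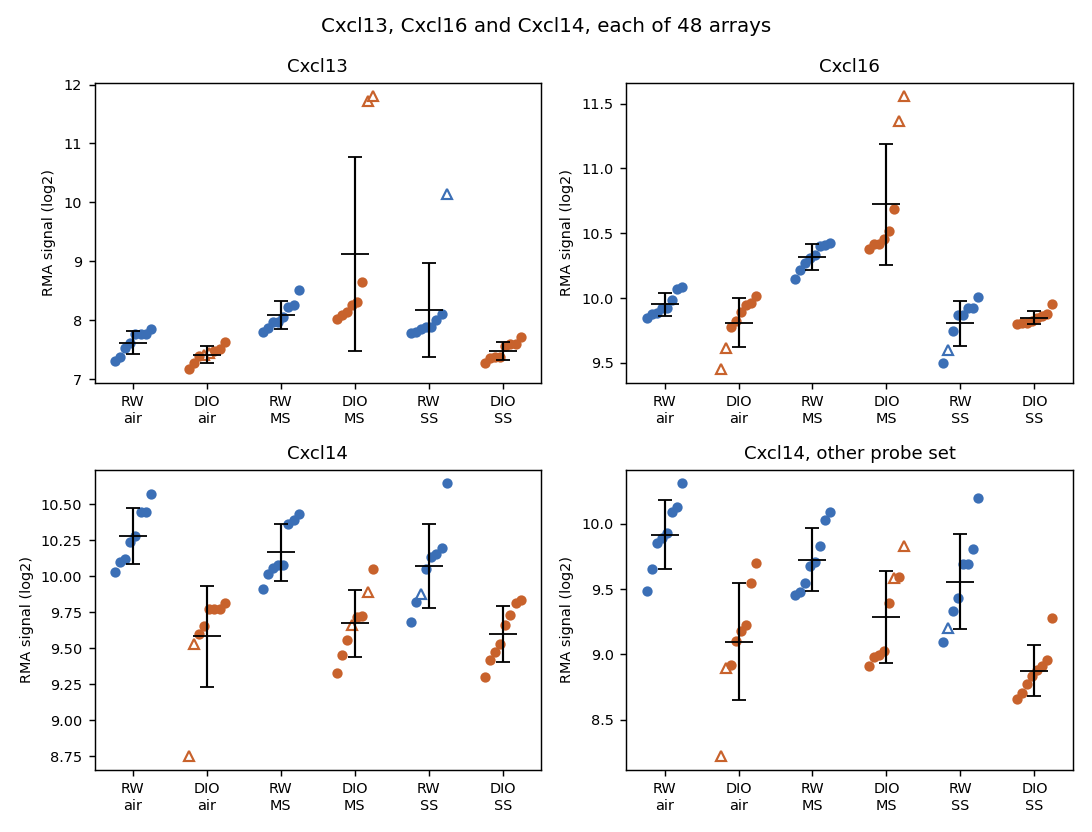
Log2 RMA signal of Cxcl13, Cxcl16 and the 2 probe sets of Cxcl14 on each of the 48 arrays by group (colours, triangles and bars as for the neutrophil-attracting ligands). Cxcl14 averages 9.58 to 9.67 in the 3 DIO groups and 10.07 to 10.28 in the 3 RW groups; Cxcl13 is raised most on DIO mainstream arrays 1 and 6 and on RW sidestream array 6.

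Whether mainstream smoke moved the ligands further in DIO than in RW mice was tested as an interaction. With limma 0 of the 8 passed, where 0.888% of all genes did, and 5 of the 8 had an unadjusted p under 0.05, as did 13.9% of genes. The extra rise in DIO mice was 0.55 ± 0.16 for Cxcl16 (adjusted p = 0.075), 1.25 ± 0.52 for Cxcl13 (adjusted p = 0.25), 0.87 ± 0.33 for Cxcl1 (adjusted p = 0.20) and 0.94 ± 0.45 for Cxcl2 (adjusted p = 0.34). For Cxcl5 it was 0.32 ± 0.49, with a 95% interval from -0.66 to 1.29. Without the 5 arrays the values fell to 0.21 for Cxcl16, 0.37 for Cxcl13, 0.40 for Cxcl1, 0.17 for Cxcl2 and -0.29 for Cxcl5, all with an adjusted p of 0.22 or more.

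Sidestream smoke, the smoke from the burning tip, moved none of the 8 past the threshold in either diet, and 2.17% of genes were called in RW and 6.85% in DIO mice. At an unadjusted p under 0.05 there was 1 ligand in RW mice, Cxcl5, and 1 in DIO mice, Cxcl12; 15.9% and 22.5% of genes reached that. For Cxcl5 the lowest, median and highest signals were 4.47, 5.11 and 6.31 in RW sidestream mice, of which 2 arrays lay above every RW air array. Its difference of 0.91 ± 0.34 ranked 6 of the 12393 (1.88-fold, 95% interval 0.22 to 1.60, adjusted p = 0.15), and without the 5 arrays it was 1.003 with an adjusted p of 0.048. In the limma fit of all probe sets without the 5 arrays it was not called (adjusted p = 0.05003). Both groups were dim: Cxcl5 lay at or below the lower quartile of all values on 8 RW air and 7 RW sidestream arrays. In DIO mice the Cxcl5 difference was 0.50 ± 0.34 (95% interval -0.19 to 1.19, adjusted p = 0.39). The interval for Cxcl1 ran from -0.21 to 0.74 in RW and from -0.18 to 0.77 in DIO mice, and that for Cxcl2 from -0.55 to 0.73 and from -0.72 to 0.57. The response to sidestream smoke differed between diets for 0 of the 8 (0.654% of genes), and 0 had an unadjusted p under 0.05, as did 12.2% of genes.

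Cxcl13 in RW sidestream mice ran from 7.78 through a median of 7.89 to 10.14, and 7 of the 8 arrays lay at or below 8.11. The high value was RW sidestream array 6, whose fat marker score was 4.61 against at most 0.34 on the other 7. DIO air arrays 7 and 3, with fat scores of 4.75 and 3.00, had Cxcl13 at 7.40 and 7.45, within the range of the other 6 arrays of their group (7.17 to 7.64). The part of fat tissue in any of these Cxcl13 values was not tested. In RW mice the Cxcl13 difference of sidestream smoke from air was 0.56 ± 0.37 (adjusted p = 0.48), and 0.28 without the 5 arrays (adjusted p = 0.073). All 8 DIO sidestream arrays, between 7.28 and 7.71, lay below all RW sidestream arrays, with a difference of -0.70 ± 0.37 (adjusted p = 0.55), which was -0.42 with an adjusted p of 0.0085 without the 5 arrays.

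Set directly against sidestream smoke, mainstream smoke gave higher levels of 4 ligands in RW mice (9.77% of genes called, 6.05% higher) and of 5 in DIO mice (16.8% called, 8.83% higher). In RW mice these were Cxcl5 (3.43 ± 0.34), Cxcl1 (3.43 ± 0.24), Cxcl2 (2.06 ± 0.32) and Cxcl16 (0.51 ± 0.11). In DIO mice they were Cxcl1 (4.27 ± 0.24), Cxcl5 (4.15 ± 0.34), Cxcl2 (3.17 ± 0.32), Cxcl13 (1.64 ± 0.37) and Cxcl16 (0.87 ± 0.11). The same 5 were called in DIO mice without the 5 arrays, with Cxcl13 at 0.76, Cxcl2 at 2.41 and Cxcl16 at 0.63. For Cxcl12 the second probe set was also higher after mainstream smoke in the limma fit of all probe sets. It differed by 0.81 ± 0.18 in RW (adjusted p = 0.0016) and 1.51 ± 0.18 in DIO mice (adjusted p = 8.2e-09). Those differences were 0.82 and 1.21 without the 5 arrays, while the first probe set gave 0.13 and -0.02 on all arrays. The gap between the smokes differed between diets for 0 of the 8 with limma (0.00807% of genes), and 4 had an unadjusted p under 0.05, as did 5.04% of genes. These 4 were Cxcl1, Cxcl2, Cxcl13 and Cxcl16, at 0.84, 1.11, 1.74 and 0.37, DIO minus RW. Without the 5 arrays they fell to 0.50 ± 0.29, 0.36 ± 0.24, 0.58 ± 0.14 and 0.15 ± 0.08, and none was called. Ordered by group mean, Cxcl1 and Cxcl2 were highest in DIO mainstream, then RW mainstream, and lower in the other 4 groups; the 2 mainstream groups did not differ past the threshold (adjusted p = 0.072 and 0.18), nor did any sidestream group from its air group.

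**Figure D5:**
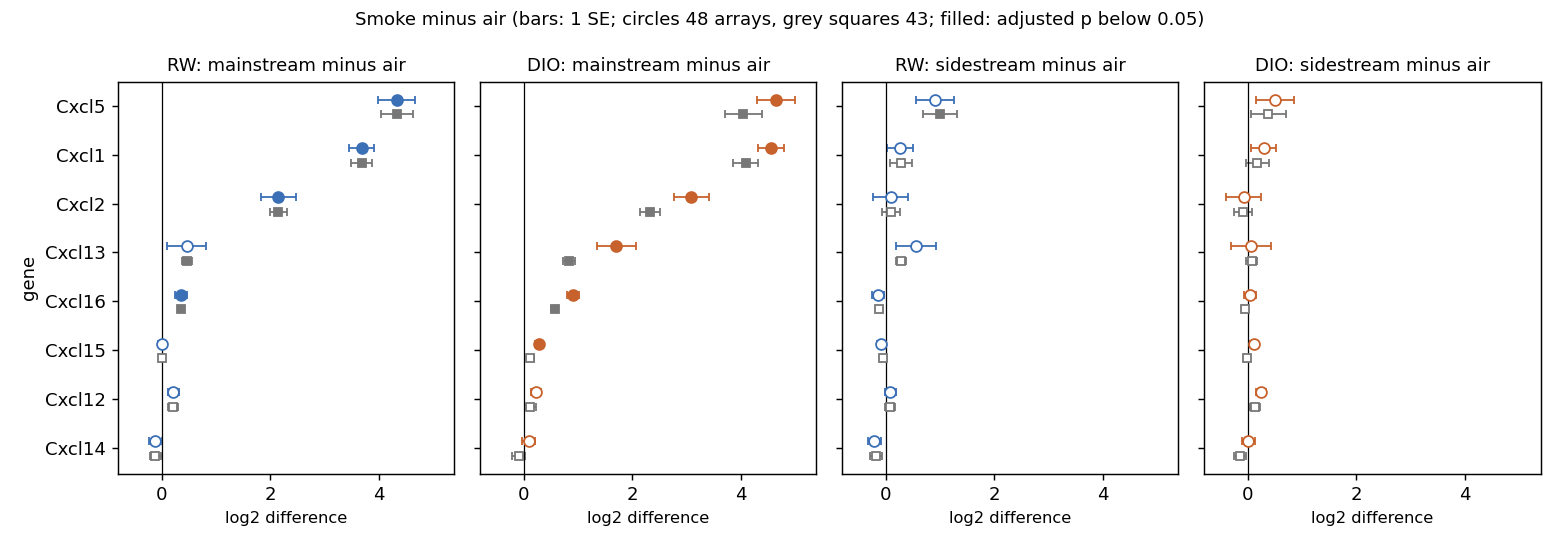
Log2 difference, smoke minus air of the same diet, for each ligand (bars 1 SE). Circles are the fit of 48 arrays and grey squares that without the 5 arrays; filled symbols have an adjusted p below 0.05. Cxcl5 and Cxcl1 lie at 3.69 or more after mainstream smoke in both diets, and no circle is filled after sidestream smoke.

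Of 7 listed receptors of these ligands 6 were measured. After mainstream smoke 1 rose and 2 fell in RW mice, and 2 rose and 0 fell in DIO mice. Of all genes 14.7% were called either way in RW and 21.4% in DIO mice. The median difference of the receptors after mainstream smoke was -0.07 in RW and 0.21 in DIO mice (0.06 in DIO mice without the 5 arrays). Cxcr2, the receptor of the neutrophil-attracting ligands, did not pass the test: 0.19 ± 0.12 in RW (adjusted p = 0.33) and 0.28 ± 0.12 in DIO mice (adjusted p = 0.11). Cxcr4, the receptor of Cxcl12, and Cxcr5, that of Cxcl13, fell in RW mice after mainstream smoke (differences of -0.51 ± 0.14 and -0.54 ± 0.12) and after sidestream smoke (-0.50 ± 0.14 and -0.55 ± 0.12). In air both were lower in DIO than in RW mice, with differences of -0.85 ± 0.12 for Cxcr5 and -0.43 ± 0.14 for Cxcr4. The response of Cxcr5 differed between diets, by 0.68 ± 0.17 for mainstream smoke (adjusted p = 0.040) and 0.89 ± 0.17 for sidestream smoke (adjusted p = 0.0033). The mainstream call was lost without the 5 arrays, at 0.50 with an adjusted p of 0.18, and the sidestream call held.

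Markers of B cells, which carry Cxcr5, moved beside it: 6 of 7 measured were lower in DIO than in RW air mice, and 5 of 7 fell in RW mice after either smoke. Of all genes 5.99% were called lower in DIO than in RW air mice. In RW mice 14.7% were called either way after mainstream and 2.17% after sidestream smoke. The B cell score lay between 0.25 and 0.84 in RW air, between -0.67 and -0.02 in DIO air, between -0.41 and 0.27 in RW mainstream and between -0.19 and 0.22 in RW sidestream mice. The part of these markers in the Cxcr5 and Cxcl13 values was not tested. Cxcr6, the receptor of Cxcl16, rose in DIO mice after mainstream smoke by 0.58 ± 0.15 (adjusted p = 0.0050), and by 0.37 without the 5 arrays (adjusted p = 0.045), and was -0.05 ± 0.15 in RW mice. Ackr1, the vascular receptor that binds many chemokines without signalling, rose by 0.51 ± 0.16 and 0.66 ± 0.16 (0.44 in DIO mice without the 5 arrays), while Ackr3, the scavenger of Cxcl12, gave -0.08 ± 0.10 and -0.01 ± 0.10 (adjusted p = 0.67 and 0.95).

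Of 4 other listed CXC ligands 3 were measured, and after mainstream smoke 2 rose and 1 fell in each diet. Of all genes 14.7% were called either way in RW and 21.4% in DIO mice. Between Cxcl5 and Cxcl15 on chromosome 5, Ppbp, a platelet chemokine, fell after mainstream smoke (-0.56 ± 0.16 in RW and -0.59 ± 0.16 in DIO mice), and Pf4, platelet factor 4, rose by 0.33 ± 0.08 and 0.43 ± 0.08. Cxcl17, a mucosal chemokine, was called higher in all 4 comparisons of smoke with air: 0.63 ± 0.14 and 0.74 ± 0.14 after mainstream smoke, and 0.51 ± 0.14 and 0.95 ± 0.14 after sidestream smoke, RW first; the DIO mainstream value was 0.47 without the 5 arrays. Its lowest, median and highest signals in DIO sidestream mice were 11.22, 11.51 and 11.89, above every DIO air array (9.93, 10.79 and 11.02).

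Part of the genes of the signalling known to induce the neutrophil-attracting ligands were higher after mainstream smoke. Of 19 listed genes of NF-kB, interleukin 1 and interleukin 17 signalling 18 were measured; 10 were called higher after mainstream smoke in RW mice and 12 in DIO mice, none lower, with medians of 0.35 and 0.58 beside -0.03 and -0.02 over all genes. Of all genes 6.61% were called higher in RW and 11.7% in DIO mice. Leaving out the 5 arrays gave 12 of the 18 called higher in RW and 11 in DIO mice, with medians of 0.35 and 0.31. Nfkbiz, the NF-kB cofactor of secondary response genes, rose by 1.49 ± 0.11 and 1.85 ± 0.11. Il1rn, the interleukin 1 receptor antagonist, rose by 1.08 ± 0.26 and 2.10 ± 0.26 (1.51 in DIO mice without the 5 arrays), and Zc3h12a, an RNase that degrades cytokine messages, by 0.71 ± 0.10 in RW mice and 1.01 ± 0.10 in DIO mice. Il1b, interleukin 1 beta, rose in DIO mice by 1.33 ± 0.29, and by 0.48 without the 5 arrays, where the RW difference was 0.50. Without the 5 arrays Il17a, Il17ra and Il17rc, of interleukin 17 signalling, differed by 0.09, -0.02 and -0.11 in RW mice. In DIO mice they differed by 0.08, 0.17 and -0.04 (adjusted p = 0.65, 0.10 and 0.66). After sidestream smoke 0 of the 18 were called in either diet, where 2.17% of all genes were called in RW and 6.85% in DIO mice.

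Of the lymphoid genes around Cxcl13, 5 of 7 listed were measured, and Tnfsf13b, the B cell survival factor BAFF, rose after mainstream smoke by 0.37 ± 0.11 in RW and 0.57 ± 0.11 in DIO mice (0.34 in DIO mice without the 5 arrays). Ccr7, which guides lymphocytes to lymph vessels and nodes, rose by 0.78 ± 0.15 in DIO mainstream mice (0.52 without the 5 arrays) and fell by 0.56 ± 0.15 in RW sidestream mice. In air Ccr7, Ltb (lymphotoxin beta) and Tnfsf13b were lower in DIO than in RW mice, with differences of -0.62 ± 0.15, -0.59 ± 0.14 and -0.37 ± 0.11. The Tnfsf13b call was lost without the 5 arrays, at -0.15 with an adjusted p of 0.20.

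Most neutrophil markers did not pass the test after mainstream smoke, where 6.61% of all genes were called higher in RW and 11.7% in DIO mice. Of 10 listed markers 8 were measured, and 1 was called higher after mainstream smoke in RW mice (Mmp8, neutrophil collagenase, by 1.22 ± 0.18). In DIO mice 2 were called higher, Mmp8 by 1.79 ± 0.18 (1.33 without the 5 arrays) and Csf3r by 0.43 ± 0.16. Csf3r, the receptor of granulocyte colony-stimulating factor, was at -0.02 without the 5 arrays. The neutrophil score lay between -0.39 and 0.62 in RW air and between -0.14 and 0.29 in RW mainstream mice, and between -0.54 and 0.32 in DIO air and between -0.05 and 0.83 in DIO mainstream mice. Of the alveolar macrophage markers 4 of 6 measured rose and 1 fell in each diet (3 rose in DIO mice without the 5 arrays), with scores between -0.32 and -0.03 in RW air, 0.12 and 0.95 in RW mainstream, -0.78 and -0.00053 in DIO air, and 0.11 and 0.49 in DIO mainstream mice. The part of either cell type in the ligands' rise was not tested.

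Genes with the most similar pattern were found as those with the smallest root mean square distance, in log2, over the differences of the other 5 group means from RW air. For Cxcl1 they were Ly6i (0.27), Mmp12, macrophage elastase (0.42), and Slc26a4, the anion exchanger pendrin (0.44). For Cxcl2 they were Cxcl10 (0.17), the monocyte attractant Ccl2 (0.17) and Ch25h, cholesterol 25-hydroxylase (0.25). Cxcl5 had no close match, the nearest being Cxcl1 (0.44), Slc26a4 (0.57) and Ly6i (0.64). For Cxcl13 the nearest were the interferon-induced Ifi204 (0.18), Acod1, which makes itaconate (0.25), and the Fc receptor Fcgr1 (0.26). For Cxcl16 they were Asgr2 (0.05), the NF-kB inhibitor Tnfaip3 (0.07) and Oasl2 (0.08), and for Cxcl15 Prdx4, Loxl3 and Zup1, at 0.03 each.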

How the data were processed

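Lung RNA of 48 mice was hybridised to Affymetrix arrays, 1 per animal. The authors deposited 1 table of log2 values, normalised by RMA (robust multi-array average) per the submitters' processing notes; the sources used here name no RMA version. The values run from 2.50 to 15.27, and the array medians from 7.82 to 7.94. Of 22690 probe sets, 20380 with 1 gene symbol in GEO's platform annotation were used, and the probe set with the highest mean stood for each of 12393 genes.

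Group means were fitted with limma 3.58.1 (lmFit, contrasts.fit, eBayes) in R 4.3.3 on all 48 arrays, with 12 contrasts and Benjamini-Hochberg adjustment over all genes within each; a gene was called at an adjusted p below 0.05, and intervals are at 95%. The fit was tested on simulated data. The number of arrays limits the precision. The sources of RW mainstream arrays 7 and 8 and of RW sidestream arrays 7 and 8 repeat the numbers 5 and 6; these arrays were no more alike than others of their group and were taken as separate animals.

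All 8 ligands with every probe set, the measured receptors and other CXC ligands are named. From the longer lists the text names the 3 members with the largest difference, and the 1 with the smallest where below 0, among those called in a smoke comparison, and the 3 most similar genes of each ligand called there; other genes were named after their values were seen. The members, the lists and the 5 arrays that stand apart were chosen with earlier results of these data known. Alternatives were median centring, the mean of a gene's probe sets, all probe sets, a filter on dim genes, eBayes with trend and robust, only the groups compared, a replicate block, the 43 other arrays and, chosen after seeing the data, each array left out.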

Additional observations from a re-analysis of the deposited data

Results flagged for a closer look

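In 7 of the 48 groups of 8 values (8 ligands in 6 groups) the gap between an extreme array and its neighbour took up more of the group's range than Dixon's 95% critical value for 8 values; chance alone gives about 1 in 20. For Cxcl13 in RW sidestream mice it was 0.861, with array 6 at 10.14. For Cxcl2 in RW mainstream mice it was 0.744, with array 5 at 4.95. DIO air array 7 had the lowest Cxcl14, at 8.75 (0.734), and the lowest Cxcl15, at 13.03 (0.644). DIO sidestream array 7 had the lowest Cxcl12 of its group, at 10.73 (0.658), and the highest Cxcl16, at 9.96 (0.529). RW sidestream array 8 had the lowest Cxcl12, at 9.96 (0.532). The 2 high DIO mainstream arrays passed no such threshold, since each is the other's nearest neighbour.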

How the results depend on the processing

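Of 96 differences (8 ligands in 12 comparisons), 23 were called; over 8 alternative settings these gave 184 values, of which 176 kept direction and call, none of the 184 reversing. Without the 5 arrays the number of ligands called was 5 in mainstream against air in each diet (4 in RW and 6 in DIO mice with all arrays), 2 in DIO against RW air, 1 in RW sidestream against air, 1 in DIO against RW mainstream and 3 in DIO against RW sidestream mice. With median centring, all probe sets or only the groups compared, DIO against RW mainstream mice gave 1. DIO against RW sidestream mice gave 2 with centring, the dim filter, and trend and robust. With the mean of probe sets Cxcl12 reversed between mainstream and sidestream smoke in DIO mice, from -0.02 to 0.74, and was called after mainstream smoke in both diets (0.57 and 0.84). With only the groups compared Cxcl13 and Cxcl15 in DIO mainstream mice had adjusted p-values of 0.052 and 0.11, while Cxcl13 in RW mainstream mice and Cxcl15 in DIO mainstream against sidestream were called (0.0038 and 0.0135). Over fits that each left out 1 array the number of ligands called stayed at 1 (DIO against RW air), 4 (RW mainstream against air and against sidestream) and 0 (sidestream against air in both diets, and the other 2 interactions). It ran from 6 to 7 in DIO mainstream against air, 5 to 6 in DIO mainstream against sidestream, 0 to 1 for the mainstream interaction, 0 to 3 for DIO against RW mainstream and 0 to 2 for DIO against RW sidestream mice. The single arrays that brought a call were DIO air 4 and DIO mainstream 4, 5 and 8 for the Cxcl16 interaction (adjusted p 0.044 to 0.049), RW mainstream 3 and 6 and DIO mainstream 2 and 4 for Cxcl1 between diets (0.037 to 0.048), RW sidestream 8 for Cxcl12 in DIO mainstream mice (0.042), DIO air 7 for Cxcl15 in DIO mainstream against sidestream (0.018) and against RW mainstream mice (0.045), and DIO air 3 and 7, DIO mainstream 1 and RW sidestream 2, 5 and 7 for Cxcl12 in sidestream mice (0.033 to 0.049).

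Replicate numbers are shared between groups, but the labels do not say that they pair animals: 42 of 120 same-number pairs of arrays correlated above 0.1 (median 0.036, lowest -0.39), and 9 of 48 arrays were most like their own number. With the replicate block 4 ligands were called in RW and 6 in DIO mainstream against air, and the block changed none of the 96 calls. Over all genes, only the groups compared gave 312 calls in DIO against RW air (1026 in the full fit), 1178 in DIO mainstream against air (2658), 380 in DIO sidestream against air (849), 35 for the mainstream interaction (110), 47 and 415 between diets in mainstream and sidestream mice (150 and 121) and 0 for the third interaction (1). Without the 5 arrays there were 3015 in RW mainstream against air (1819), 581 in RW sidestream against air (269), 2116 in RW mainstream against sidestream (1211), 155 for the sidestream interaction (81), 371 between diets in sidestream mice (121) and 3 for the third interaction. All probe sets gave 2990, 494, 190 and 2 for RW mainstream and RW sidestream against air, diet in sidestream mice and the third interaction, and the mean of probe sets gave 2 for the last. Median centring moved the share called higher from 32.0% to 48.1% in RW sidestream against air, from 66.4% to 49.5% in the mainstream interaction, from 60.5% to 44 of 88 genes in the sidestream interaction, and from 50.7% to 35.7% for diet in mainstream mice.

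Precision is limited by 8 arrays a group and, for Cxcl1, Cxcl2 and Cxcl5, by dim signals in air without detection calls. The labels give no array run or scan date, and the part of either in the results was not tested.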
